A study of Homo sapiens with 9 samples.

Results

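IGROV-1/Pt1, an ovarian carcinoma cell line made resistant to platinum by exposing IGROV-1 cells to cisplatin, was compared with parental IGROV-1, the cisplatin-sensitive human ovarian carcinoma line it came from. The comparison uses 6 of the 9 arrays of the series, 3 of IGROV-1/Pt1 and 3 of parental cells, chosen by their sample titles. The remaining 3 arrays are of IGROV-1/OHP, which was derived from the same parent by exposure to oxaliplatin. They count towards the choice of probes tested and the estimate of the spread, and they are compared with IGROV-1/Pt1. Cells were harvested while growing exponentially, and the series text describes the 3 samples of each line as biologically independent. The labels give no dose, no length of exposure, no degree of resistance and no statement on whether IGROV-1/Pt1 is a single clone. With 1 resistant line of this kind, resistance and any other trait that the line acquired or was selected for cannot be told apart.

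Cisplatin is a platinum compound that binds purine bases and crosslinks DNA, and it is a mainstay of ovarian cancer treatment. Cells that survive repeated exposure can differ from their parents in drug uptake and efflux, detoxification, DNA repair and the threshold for apoptosis. MicroRNAs (miRNAs) are short non-coding RNAs that guide the Argonaute protein to messenger RNAs with a matching seed site and lower their stability and translation, so that 1 miRNA can act on many messages at once. Families such as let-7 and miR-200 have been studied in ovarian carcinoma for their links to differentiation and to the epithelial state.

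MicroRNAs were measured on Illumina bead arrays, and each value is the deposited, already normalized intensity of a probe, on a linear scale with no unit. The probes are known here by Illumina identifiers alone. The files do not pair them with miRNA names, and 0 of 1145 identifiers were found in the gene and miRNA tables at hand, so no miRNA, sequence, family or marker of cell type is given and the labelled cell type could not be checked. Of the 1145 probes, 705 were tested because they reached an intensity of 167 on at least 3 of the 9 arrays. That level is 2 times the most common intensity and is a setting, not a detection call. Of the 705, 580 reached it on all 6 arrays compared. The arrays carry RNA of whole cultures, so fewer cells with a miRNA and less of it per cell cannot be told apart.

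The cisplatin-resistant line departed from its parent at a minority of probes and by large factors at some of them. At an adjusted p below 0.05, 126 of 705 probes differed, which is 17.9% of those tested, of which 76 (10.8%) rose and 50 (7.09%) fell in the resistant line (limma, two-sided, Benjamini-Hochberg adjustment over all 705 probes). At an unadjusted p below 0.05 the counts were 117 higher and 96 lower. The median log2 change over all probes was -0.02, and the middle 50% of probes lay between -0.36 and 0.28. The probes that rose had a median change of 1.75 on the log2 scale, or 3.37-fold, and those that fell had a median of -1.03, or 2.04-fold. When the level of 167 stood in for any line that was under it throughout, these medians were 1.56 and -0.90.

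**Figure D1:**
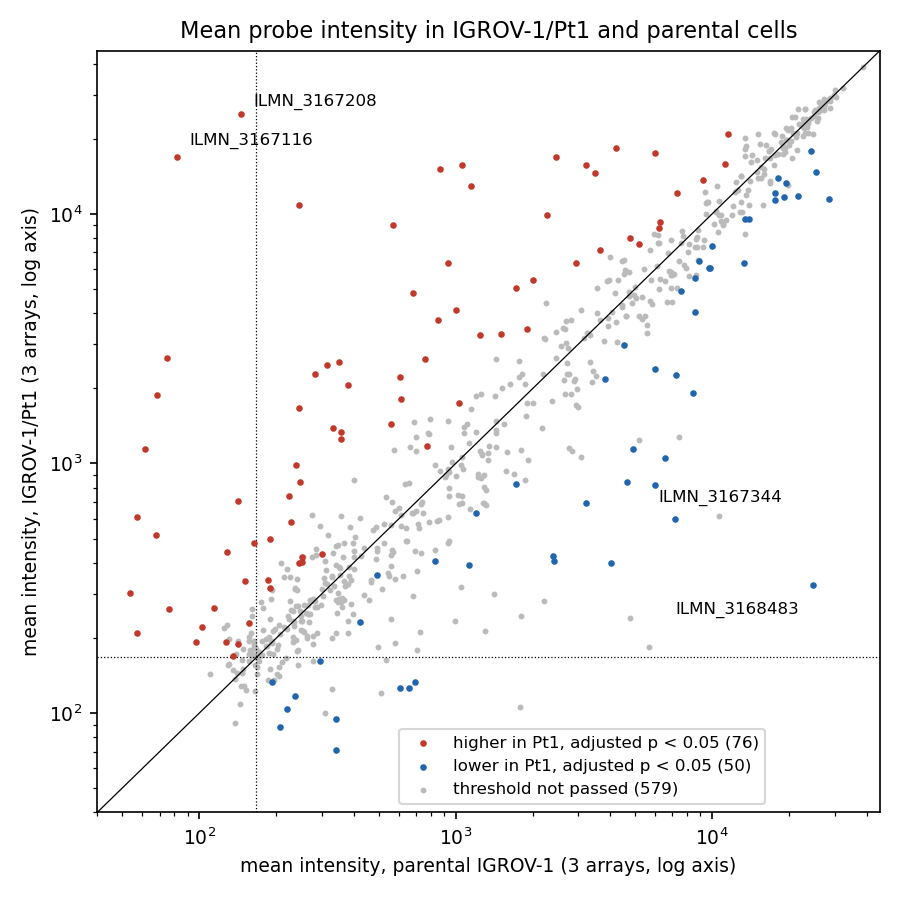
Mean intensity of each of the 705 tested probes in IGROV-1/Pt1 (vertical) and parental cells (horizontal), 3 arrays each, on log axes. Red and blue points are the 76 higher and 50 lower probes in IGROV-1/Pt1 at a limma adjusted p below 0.05, dotted lines mark the intensity of 167 and the diagonal marks equal means. Most probes lie near the diagonal, and ILMN_3167116 and ILMN_3167208 stand at the upper left.

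The largest rises were at ILMN_3167116 and ILMN_3167208. The first was the largest by the measured change. The second was the largest once the level of 167 stood in for any line that was under it throughout. The intensity of ILMN_3167116 was 16831, 17842 and 15802 on the IGROV-1/Pt1 arrays, against 60.3, 108 and 76.7 on the parental arrays. All parental values are below the level of 167, so this probe changed from the dim end of the array to a bright signal, and its rise was of at least 101-fold. The measured log2 change was 7.73, with a 95% interval of 7.16 to 8.30 (limma adjusted p = 6.8e-07). ILMN_3167208 stood at 24823, 27072 and 23369 in IGROV-1/Pt1, against 119, 191 and 127 in parental cells. One of its parental arrays passed the level, so the level did not stand in for any of its values. The rise was 176-fold as measured, and the groups were separated by 123-fold at their nearest arrays. Its log2 change was 7.46, with a 95% interval of 6.89 to 8.03 (limma adjusted p = 6.8e-07). For these 2 probes, the replicates of IGROV-1/Pt1 were tight on the log2 scale, with SDs of 0.09 and 0.11 (n = 3 each), while the parental SDs near the floor were 0.42 and 0.37 (n = 3 each).

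The largest fall was at ILMN_3168483, with intensities of 330.5, 396 and 254 in IGROV-1/Pt1, against 23952, 24445 and 25965 in parental cells. The lowest parental array was 60.5-fold above the highest array of IGROV-1/Pt1. The log2 change was -6.27, with a 95% interval of -6.63 to -5.91 (limma adjusted p = 1.6e-07). All 3 arrays of the resistant line stayed above 167, so the level did not stand in for any of its values. ILMN_3167344 had 297, 347 and 1157 in IGROV-1/Pt1, against 8228, 7941 and 5358 in parental cells. The third array of IGROV-1/Pt1 lay well above the other two of its line and still 4.63-fold below the lowest parental array. The log2 change was -3.84, with a 95% interval of -5.14 to -2.54 (limma adjusted p = 0.0021). Without that array the fall was 22.0-fold in place of 14.3-fold.

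**Figure D2:**
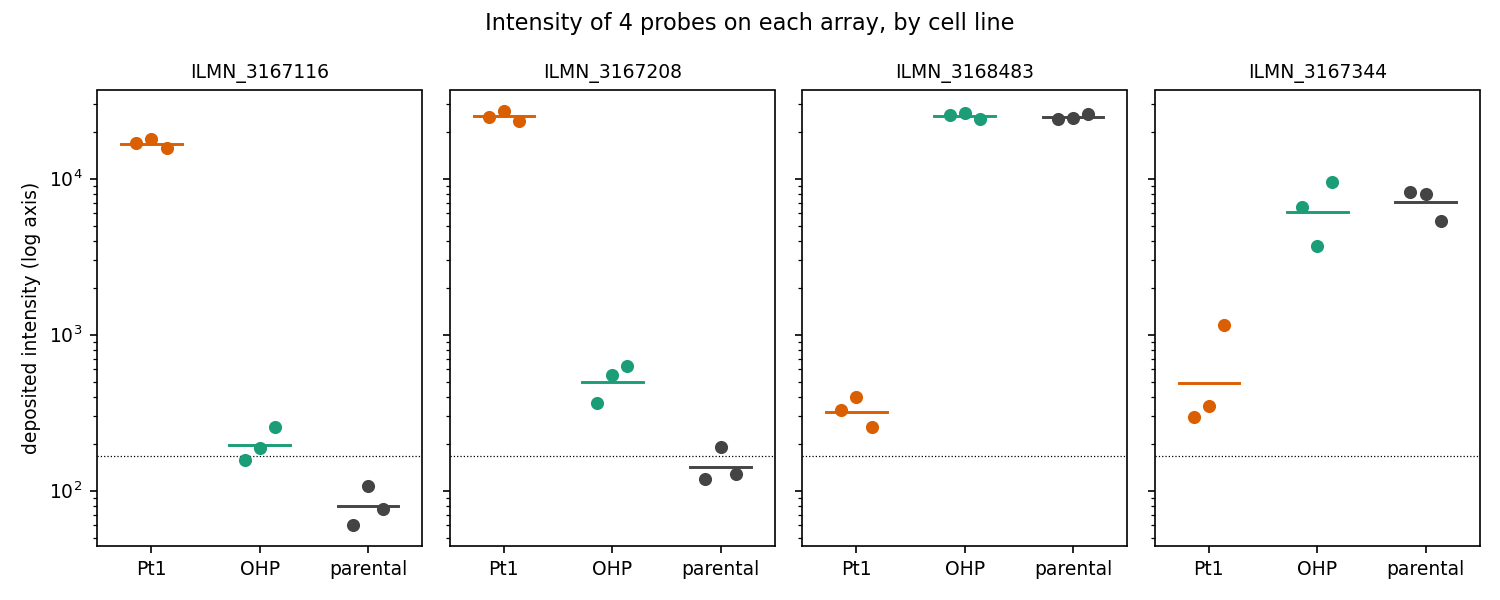
Deposited intensity on a log axis of the 2 largest rises and 2 largest falls on every array of IGROV-1/Pt1, IGROV-1/OHP and parental cells. Points are arrays, bars are means of log2 intensities and the dotted line is the intensity of 167. The IGROV-1/Pt1 points lie above all parental points at ILMN_3167116 and ILMN_3167208 and below them at ILMN_3168483 and ILMN_3167344.

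The 12 largest rises differed in whether the probe was already above the level in the parent. In parental cells, 5 of the 12 lay below 167 on all arrays, 1 reached it on some arrays and 6 on all of them. All 12 reached it on every array of IGROV-1/Pt1, where their means ran from 609 to 25088 with a median of 11895, against 57.2 to 2457 with a median of 196 in parental cells. The rise of the third rank had 10184, 12500.2 and 9911 in IGROV-1/Pt1, against 254, 256 and 226 in parental cells. It was 44.1-fold higher (log2 change 5.46, SE 0.21, limma adjusted p = 1.6e-06). Both groups were above the level here, so the level did not stand in for any value. The parental values lie close to the array medians of 240 to 241, and the level is not a detection call.

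The rise of the fourth rank had 2345, 2944 and 2655 in IGROV-1/Pt1, against 73.1, 75.8 and 75.8 in parental cells, which is at least 15.8-fold. The fifth had 1143, 2655 and 1853 in IGROV-1/Pt1, against 66.7, 67.8 and 71.2 in parental cells, which is at least 10.6-fold. The sixth had 1223, 1072 and 1143 in IGROV-1/Pt1, against 52.8, 58.8 and 71.9 in parental cells, at least 6.85-fold. These 3 probes resemble ILMN_3167116 in being under the level on every parental array, but they reached intensities of 1072 to 2944 in the resistant line. The seventh, the ninth, the tenth and the eleventh rise began from intensities above the level on every parental array and reached means of 9058 to 15729 in IGROV-1/Pt1. At the ninth, the arrays of IGROV-1/Pt1 read 8885, 8885 and 9404, against 509.9, 619.998 and 584 in parental cells. The smallest of the 12 had 544, 525 and 758 in IGROV-1/Pt1, against 53.8, 60.6 and 57.2 in parental cells, and its rise was at least 3.59-fold.

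The rise ranked eighth rested on uneven parental arrays. It had 15930, 20183 and 14689 in IGROV-1/Pt1, against 6533, 218 and 620.0 in parental cells, so the first parental array was close to the resistant line and the other two far below it. The log2 change was 4.13 with an SE of 1.07 (limma adjusted p = 0.033). Without that array the change was 5.51 (adjusted p = 2.5e-04), whereas without any other of the 6 arrays the probe lost the call, with adjusted p between 0.064 and 0.107. Without parental replicate 2 the rise was 8.34-fold, and without each of the other 4 arrays 14.1-fold to 18.7-fold, against 17.5-fold with all arrays. It was the only one of the 24 probes with the largest changes that was not called in all 6 fits that leave out an array of the 2 lines.

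The 12 largest falls had a median of 5.71-fold and the 12 largest rises a median of 15.8-fold, with the level standing in for lines under it throughout. On that footing the falls ran from at least 3.56-fold to 77.0-fold and the rises from at least 3.59-fold to 176-fold, so the smallest of each were alike. In parental cells all 12 reached the level on every array, with means of 605 to 24787 and a median of 4345. In IGROV-1/Pt1 their means ran from 126 to 1918 with a median of 416, and 3 of the 12 lay below the level on all arrays. The fall of the third rank had 329, 327 and 540.0 in IGROV-1/Pt1, against 4436, 4190.0 and 3441 in parental cells (log2 change -3.37, SE 0.33, limma adjusted p = 2.7e-04). The fourth had 858, 883 and 718 in IGROV-1/Pt1, against 5779, 5218 and 7021 in parental cells (log2 change -2.87, SE 0.17, limma adjusted p = 1.5e-05). Both remained above the level on every array of the resistant line.

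The ninth fall went under the level in the resistant line, with 106, 132 and 141 in IGROV-1/Pt1, against 703, 584 and 687 in parental cells, at least 3.93-fold lower. The tenth had 157, 139 and 103 in IGROV-1/Pt1, against 851, 319 and 915 in parental cells, at least 3.76-fold lower. Its second parental array was the nearest to the resistant line, at 2.03-fold. The eleventh had 156, 107 and 114 in IGROV-1/Pt1, against 531, 520.0 and 763 in parental cells, at least 3.56-fold lower. The twelfth remained well above the level in IGROV-1/Pt1, at 2053, 2583 and 1118, against 10072, 6533 and 8703 in parental cells.

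**Figure D3:**
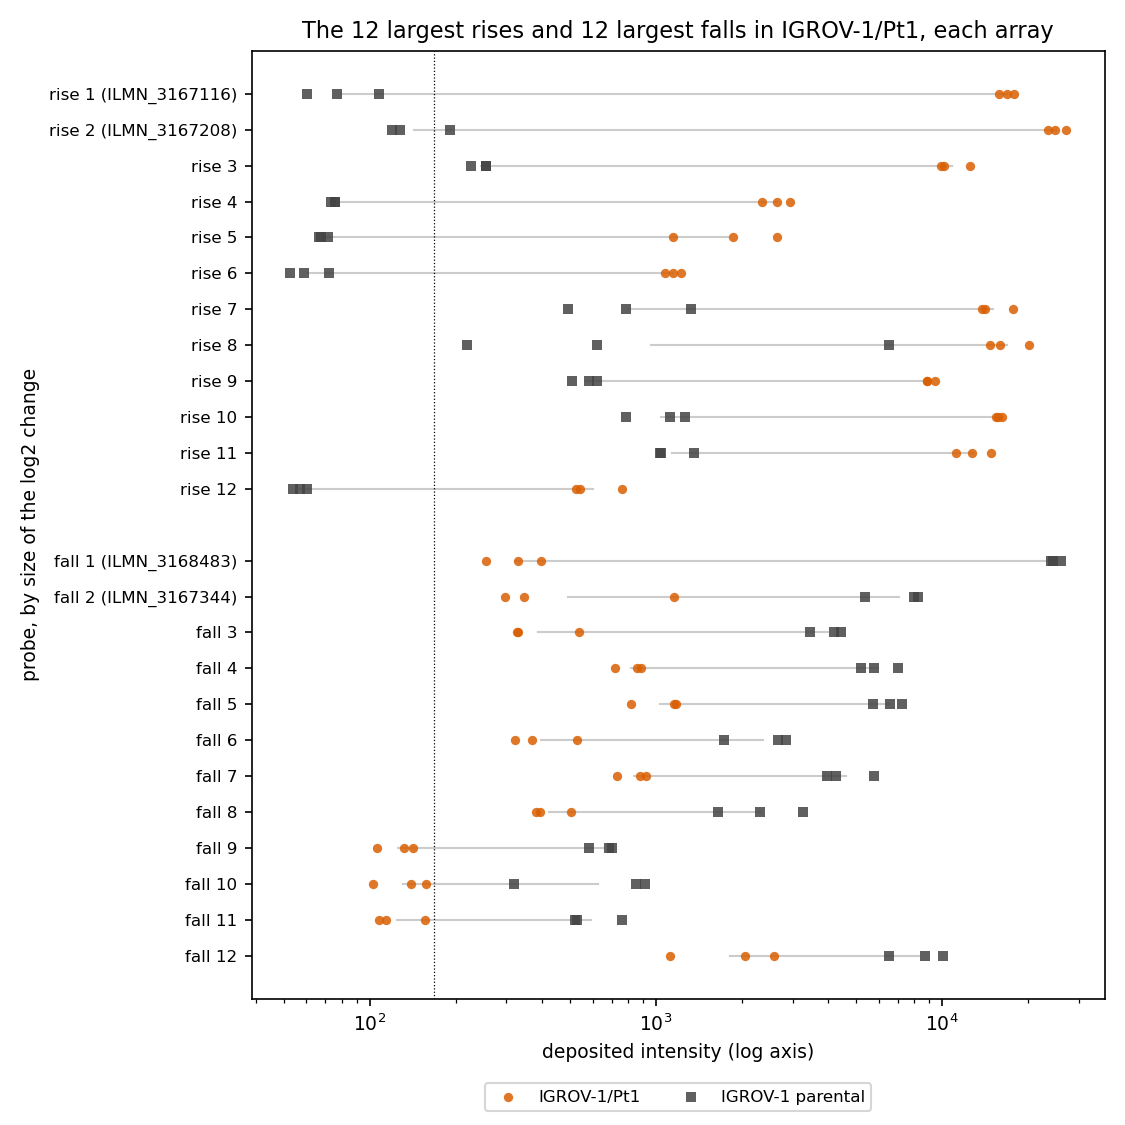
Deposited intensity on a log axis of the 12 largest rises and 12 largest falls in IGROV-1/Pt1, ordered by log2 change, with 1 circle per IGROV-1/Pt1 array and 1 square per parental array. Grey lines join the group means of log2 intensity, and the dotted line is the intensity of 167. At the rise ranked eighth, 1 parental array lies at 6533 and the others at 218 and 620.0.

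Some probes passed from one side of the level to the other on every array. In this sense 21 probes were below 167 on all parental arrays and at or above it on all IGROV-1/Pt1 arrays. Of these, 17 were called higher. Their means in IGROV-1/Pt1 ran from 181 to 16825 with a median of 261, so many of them lay not far above the level, and 4 of the 21 reached a mean of 1000. The opposite was seen at 11 probes, below the level on all IGROV-1/Pt1 arrays and at or above it on all parental arrays. Of these, 8 were called lower, and their parental means ran from 193 to 1777 with a median of 340.5. Taken at the level, 8 of the 21 gains and 6 of the 11 losses amounted to 2-fold or more, and the largest were at least 101-fold for a gain and at least 4.71-fold for a loss. These classes were formed from the same intensities as the test, so a high share of calls in them is part of how they were chosen.

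The size of the changes differed by direction among called probes. Changes of 2-fold or more that were not called were 24 falls and 3 rises, so part of this difference lies in what was called. Among called probes, 13 rises and 3 falls were of 8-fold or more, 16 rises and 12 falls of 4-fold to 8-fold, and 26 rises and 12 falls of 2-fold to 4-fold. Below 2-fold the directions were nearly equal in number, with 21 rises and 23 falls. With the level standing in for lines under it throughout, 11 rises and 3 falls were of 8-fold or more, and 15 rises and 8 falls of 4-fold to 8-fold. Small differences could be called where replicates were tight. The called rise with the smallest measured change had 164, 171 and 174 in IGROV-1/Pt1, against 141, 132 and 132 in parental cells. These values lie around and under the level, against which the rise was at least 1.01-fold. The smallest called fall, of 1.29-fold, was at a bright probe, with 13372, 13578 and 14974 in IGROV-1/Pt1, against 17667, 18385 and 18088 in parental cells.

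Calls were found in every class of intensity, and falls outnumbered rises only in the brightest class. By mean intensity over all 9 arrays, 15.0% of 153 probes under 300 were called, 15.4% of 169 between 300 and 1000, 21.4% of 103 between 1000 and 3000, 27.1% of 133 between 3000 and 10000 and 12.9% of 147 at 10000 or more, beside 17.9% overall. At 10000 or more, 6 probes were higher and 13 lower in IGROV-1/Pt1, with median folds of 1.73 and 1.56. Between 3000 and 10000, 21 were higher with a median of 4.45-fold and 15 lower with a median of 1.73-fold. Between 300 and 1000, 19 were higher with a median of 3.46-fold and 7 lower with a median of 2.85-fold. The median SD of a probe in the brightest class was 0.07 in IGROV-1/Pt1 and 0.06 in parental cells on the log2 scale (n = 3 each), against 0.20 and 0.28 between 300 and 1000. Some of the brightest probes repeated the same value across arrays, and one read 38631, the highest intensity, on all 9. Whether spreads and folds are compressed at that end was not tested. These shares were not tested against each other. The class mean includes the other lines, so a probe bright in IGROV-1/Pt1 alone is placed lower than a probe dim in it alone. ILMN_3167208, with a mean of 25088 in IGROV-1/Pt1, had a mean of 8582 over all 9 arrays. ILMN_3168483, with 327 in IGROV-1/Pt1, had 16835 and counted in the brightest class. The balance of directions in a class is thus in part a product of how the classes were formed.

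Single pairs of arrays were also compared, without a model. Across the 9 pairs of an IGROV-1/Pt1 with a parental array, 97 to 155 probes differed by 2-fold or more. The pairs with parental replicate 1 gave 155, 149 and 143, and those with parental replicates 2 and 3 gave 97 to 133. Within IGROV-1/Pt1 the number was 7 between replicates 1 and 2, and 42 and 38 between each of these and replicate 3. Within parental cells it was 54 between replicates 1 and 2, 45 between 1 and 3 and 32 between 2 and 3. Correlations of log2 intensity across probes were 0.877 to 0.909 between the lines, 0.981 to 0.994 within IGROV-1/Pt1 and 0.950 to 0.979 within parental cells, a description in which probes are not independent replicates. Probes were then picked by a gap of at least 2-fold between all arrays of the lines. The same intensities entered the test, so a high share of calls was built in, beside 17.9% of all probes. At 40 probes every array of IGROV-1/Pt1 was at least 2-fold above every parental array, and all 40 were called. At 19 probes every array was at least 2-fold below, and 18 were called.

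The single exception had 1096, 1551 and 1182 in IGROV-1/Pt1, against 4190.0, 13886 and 4133 in parental cells. Its log2 change was -2.30 with an SE of 0.91 (limma adjusted p = 0.135). At this probe the IGROV-1/OHP arrays, which enter the estimate of spread, read 4867, 16831 and 1223. Without regard to size, the arrays of the lines did not overlap at 149 probes (21.1%) higher and 143 probes (20.3%) lower in IGROV-1/Pt1, 41.4% of all tested, and 166 of these were not called.

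**Figure D4:**
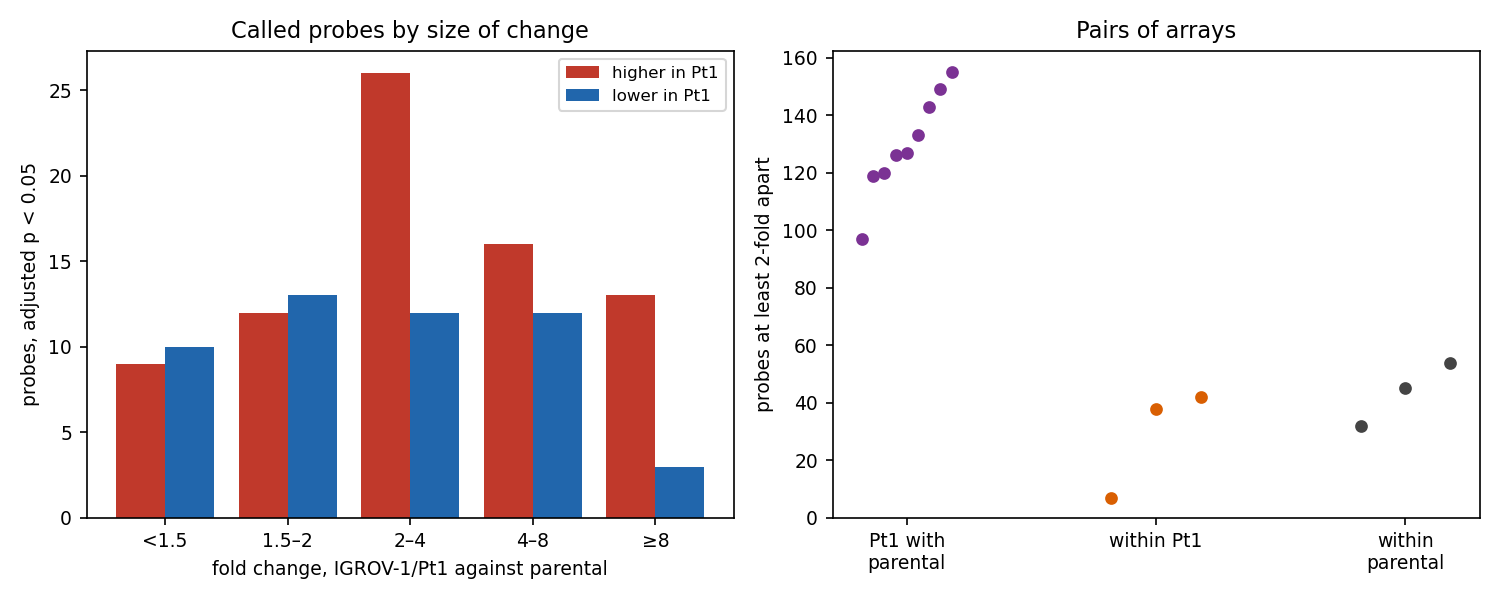
Left, called probes by fold change of IGROV-1/Pt1 against parental cells, higher (red) and lower (blue), with 13 and 3 at 8-fold or more. Right, probes at least 2-fold apart in each pair of arrays, with 97 to 155 between the lines, 7 to 42 within IGROV-1/Pt1 and 32 to 54 within parental cells.

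Large changes that missed the threshold were mostly falls, and the parental arrays disagreed at them. Of 109 probes with a change of 2-fold or more, 82 were called and 27 were not. Of the 27, 24 were lower and 3 higher in IGROV-1/Pt1. Their median SD on the log2 scale was 0.26 in IGROV-1/Pt1 and 1.22 in parental cells (n = 3 each), against 0.16 and 0.22 over all tested probes. The parental SD was the larger at 25 of the 27. A large change tends to miss the threshold where the spread is wide, so a wide spread here is part of how these probes were chosen. One bright parental array both widens the spread and moves the change towards a fall. At the largest such fall the values were 129, 264 and 157 in IGROV-1/Pt1, against 13679, 174 and 3129 in parental cells (log2 change -3.48, SE 1.38, limma adjusted p = 0.136). The resistant line resembled the second parental array at this probe and lay far below the first.

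The next largest had 599, 1007 and 240.2 in IGROV-1/Pt1, against 22007, 299 and 9550 in parental cells (log2 change -2.92, SE 1.53, limma adjusted p = 0.247). Among the 24 falls, parental replicate 1 was the brightest of its line at 16, replicate 2 at 7 and replicate 3 at 1, and the parental arrays spanned a median of 4.78-fold and up to 95.1-fold, against a median of 1.41-fold and up to 4.19-fold in IGROV-1/Pt1. Leaving out parental replicate 1, 2 or 3 brought 3, 6 or 1 of the 24 past the threshold. Parental replicate 1 exceeded replicate 2 by 4-fold or more at 20 of the 705 probes. Of those 20, 1 was called, the rise ranked eighth, and 14 were among the 27 large changes not called. The 20 were picked for a wide parental spread, which makes calls among them less likely, beside 17.9% of all probes. At the 27, parental replicate 1 was farthest from the median of its line at 15, replicate 2 at 10 and replicate 3 at 2. Parental replicate 2 was the dimmest of its line at 12 of the 24 falls, so these counts do not show which array departs. The cause of the difference between these arrays was not tested.

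For the remaining probes the data limit the size of a difference rather than show that there was none. Of the 579 probes that were not called, 383 had a 95% interval of the change that lay within 2-fold in either direction, and 196 had one that reached 2-fold or more. The median SE of the log2 change was 0.20.

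The values in the oxaliplatin-resistant line show which of the largest changes were also present there. Both comparisons with the parent share the parental arrays, so the difference between the resistant lines was tested directly, in the same limma fit. By that test 16.6% of all probes differed between IGROV-1/Pt1 and IGROV-1/OHP, and 19 of the 24 with the largest changes did, 10 of the 12 rises and 9 of the 12 falls. The 24 were chosen for their change on the same IGROV-1/Pt1 arrays, so this count is a description. ILMN_3167116 had 16831, 17842 and 15802 in IGROV-1/Pt1, against 157, 187 and 256 in IGROV-1/OHP (difference of 6.42 on the log2 scale, SE 0.24, limma adjusted p = 2.1e-06). ILMN_3167208 had 24823, 27072 and 23369 in IGROV-1/Pt1, against 363, 548 and 626 in IGROV-1/OHP (difference of 5.65 on the log2 scale, SE 0.24, limma adjusted p = 3.1e-06).

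At both probes every IGROV-1/OHP array also lay above every parental array, though far below the arrays of IGROV-1/Pt1. ILMN_3168483 had 330.5, 396 and 254 in IGROV-1/Pt1, against 25597, 26466 and 24113 in IGROV-1/OHP, so the fall in the cisplatin-resistant line left the oxaliplatin-resistant arrays at parental intensities (difference of -6.30 on the log2 scale, SE 0.16, limma adjusted p = 1.6e-07). ILMN_3167344 had 297, 347 and 1157 in IGROV-1/Pt1, against 6590, 3718 and 9483 in IGROV-1/OHP (difference of -3.64 on the log2 scale, SE 0.56, limma adjusted p = 0.0042). Of the 12 largest rises, the sixth and the eleventh were at like intensities in both resistant lines. The sixth had 1223, 1072 and 1143 in IGROV-1/Pt1, against 1154, 883 and 1253 in IGROV-1/OHP, with a 95% interval of the log2 difference of -0.31 to 0.46. The eleventh had 14853, 12715 and 11207 in IGROV-1/Pt1, against 14076, 13679 and 14974 in IGROV-1/OHP, with an interval of -0.49 to 0.19.

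Of the 12 largest falls, the fifth, the ninth and the eleventh were not called in this direct test (limma adjusted p = 0.107, 0.914 and 0.110). The 95% interval of the log2 difference was -2.08 to -0.16 at the fifth, -0.39 to 0.47 at the ninth and -1.87 to -0.13 at the eleventh. The fifth and the eleventh are thus not shown to be alike in both resistant lines. At the ninth both resistant lines were below the level of 167 on all arrays, with 106, 132 and 141 in IGROV-1/Pt1, against 148, 95.8 and 128 in IGROV-1/OHP. The seventh fall had 922, 878 and 728 in IGROV-1/Pt1, against 1551, 1421 and 1129 in IGROV-1/OHP and 3974, 4251 and 5779 in parental cells, and the resistant lines differed at it by -0.69 on the log2 scale (SE 0.19, limma adjusted p = 0.044). The tenth rise had 16141, 15425 and 15622 in IGROV-1/Pt1, against 120, 275 and 88.2 in IGROV-1/OHP, with parental arrays between them at 788, 1266 and 1118.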

How the data were processed

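The values are the authors' deposited, normalized probe intensities of 1 Illumina bead array per sample, made with BeadStudio per the submitters' processing notes, which name no background or normalization setting. Sorted from lowest to highest, the arrays held nearly the same values, within 2.69% at each rank. This is the form of quantile normalization, which hides changes in the total amount of miRNA, so no further normalization was applied. A background floor remains, so fold changes of dim probes are understated. A further 18 columns of signals and detection p-values match no sample label and were not used.

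Log2 intensities, without a pseudocount, were fitted in limma 3.58.1 (R 4.3.3) with 1 mean per line over 9 arrays (eBayes, 6 residual degrees of freedom, threshold 0.05 after Benjamini-Hochberg adjustment over 705 probes). Where all 3 arrays of a line lay below 167, a fold is given as "at least" against that level. The fit was tested on simulated data with independent normal errors, which lack the single outlying arrays and the background floor seen here. The probes described in full are the 12 largest rises and 12 largest falls by measured log2 change among called probes whose arrays did not overlap, and the first 2 in each direction are given by identifier. The comparison, the level, the lists and this rule were chosen with earlier results of these data known. The lists of miRNAs drawn up for this work could not be matched to probes. No 2 arrays held identical values, and the 3 arrays per line limit the precision.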

Additional observations from a re-analysis of the deposited data

Results flagged for a closer look

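By the direct limma contrast, 117 of 705 probes (16.6%) differed between the resistant lines, which tests whether their changes from parental cells differ. The 4 probes given by identifier, chosen for the largest measured changes on the same IGROV-1/Pt1 arrays, were among them. The log2 difference of IGROV-1/Pt1 minus IGROV-1/OHP was 6.42 at ILMN_3167116 (adjusted p = 2.1e-06), 5.65 at ILMN_3167208 (adjusted p = 3.1e-06), -6.30 at ILMN_3168483 (adjusted p = 1.6e-07) and -3.64 at ILMN_3167344 (adjusted p = 0.0042), with 3 arrays of each line. The arrays of the resistant lines did not overlap at any of the 4. The share of all probes at which these lines did not overlap is not given here, so this is a description.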

How the results depend on the processing

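Under 25 alternatives, no called probe that was still tested changed sign. Settings that alter only the variance, the filter or the threshold leave the log2 change as it was. The arrays of the called probes did not overlap between the lines, so few alternatives could have changed a sign. The count of 126 calls (76 higher, 50 lower) became 219 (115 higher, 104 lower) with array weights, 61 (42 higher, 19 lower) against a change of 1.5-fold and 81 (52 higher, 29 lower) at an adjusted p below 0.01. The 1.5-fold test and the lower threshold are stricter by construction, and for array weights the cause was not tested. Cyclic loess gave 142, no filter 141 and the level on all 9 arrays 92, from 555 probes tested. Of the 24 largest changes, 19 differed between the resistant lines and 12 did with the level on all 9 arrays, where 14 of the 24 were tested. Leaving out 1 array gave 102 to 148 calls, 63 to 89 higher and 39 to 59 lower, and 17 to 20 of the 24. Of the 126 calls, 96 were kept in all 6 fits that leave out an array of IGROV-1/Pt1 or parental cells. With a replicate block there were 118 calls (73 higher, 45 lower) and 18 of the 24. Same-numbered arrays of IGROV-1/Pt1 and parental cells deviated from their group means with correlations of -0.09, -0.19 and -0.27 across probes. Differently numbered arrays gave -0.01 to 0.23, and these values are not independent of each other. The labels give a shared number and no pairing, so the samples were not treated as pairs. At ILMN_3167344 the log2 change lay between -4.46 and -3.48. A chip block was not run, since no label ties an array to a chip.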
